A study of Homo sapiens with 6 samples.

Results

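The epidermal growth factor receptor EGFR, 7 ligand genes of the EGF family, the protease ADAM17 and the receptor inhibitor ERRFI1 were followed by gene symbol in the deposited table, 10 genes of 63241 in all. The RNA came from MDA-MB-231, an established line of triple-negative human breast cancer with mesenchymal character. Of 6 libraries, 3 came from cells treated with 40 µM of ArA and cultured for 24 h, and 3 from non-treated cells of the same line, for which the labels name no vehicle. The title of the series names arachidonic acid, a fatty acid held in membrane phospholipids, and its design sets treated against non-treated cells. The labels do not say whether replicates were separate cultures, so a p-value here speaks to the spread of these 6 libraries alone, and that spread may be technical.

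EGFR is a receptor tyrosine kinase of the plasma membrane that dimerises when a ligand binds and then signals through the ERK cascade and through PI3-kinase. Most of its ligands are made as membrane-anchored precursors, and ADAM17 is the main protease that cuts amphiregulin, epiregulin, TGF-alpha and HB-EGF loose. ERRFI1, also known as MIG6, binds the EGFR kinase domain, blocks it and promotes receptor degradation, and its gene is itself switched on by growth factor signalling. Basal-like breast cancer cells commonly carry EGFR at high levels.

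Levels are given in TPM, a gene's length-corrected share of all transcripts in a library, so levels of different genes can be set side by side, while the read depth of each library is unknown. Each library pools the RNA of many cells, so less RNA of a gene per cell and fewer cells that make it cannot be told apart. Of the 10 genes, 9 reached the minimum for testing, a mean of 1 TPM across libraries, and EPGN did not. Fold changes came from limma on log2(TPM + 1), which understates the change of low genes, and p-values were adjusted over all 12999 tested genes. All 8 markers of basal and mesenchymal breast lines were above a mean of 1 TPM, as were 6 of 9 luminal, 2 of 5 fibroblast and 0 of 6 blood cell markers. The summed level of the luminal markers was 536 to 659 TPM in control and 576 to 661 TPM in ArA libraries, most of it the keratin genes KRT8 and KRT19; EPCAM, GATA3 and FOXA1 had means of 5.33, 3.54 and 3.35 TPM, CDH1 and ESR1 of 0.0717 and 0.0117 TPM, and PGR was listed at 0 throughout. The fibroblast markers summed to 10.4 to 11.6 and 9.35 to 13.7 TPM, nearly all of it COL1A1 and PDGFRB, and the blood cell markers to 0.2 to 0.43 and 0.31 to 0.41 TPM. Control replicate 2 and ArA replicate 1 stood apart from the other 4 libraries: across 12637 genes, a gene's deviation from its own mean correlated with transcript GC content at 0.453 and 0.408 in these 2 libraries and at -0.398 to -0.0991 in the others. Mitochondrially encoded transcripts took 28.0 and 26.9% of the total in ArA replicates 2 and 3 and 31.7 to 32.9% in the other 4 libraries. The part of either difference in the results was not tested.

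No gene of the receptor system passed an adjusted p of 0.05 in the comparison of ArA with control libraries, where 3 of 12999 genes did (0.0231%). The adjusted p was 0.999 for each of the 9 tested genes in limma, and 2 of the 9, TGFA and ERRFI1, had an unadjusted p under 0.05, both higher in ArA libraries, against 2.28% of all tested genes in that direction and 0.508% in the other. Of these, 1 of the 9 (ERRFI1) remained under 0.05 with median-of-ratios scaling, where 267 of 12999 tested genes were in either direction. With quantile normalization 0 of the 9 did, against 289 of 12999 genes. With TPM rescaled without mitochondrially encoded genes 0 of the 9 did, against 276 of 12984. All 9 log2 fold changes were positive, as were 68.9% of all tested genes, with a median of 0.18 for the 9 genes and 0.06 for all. Under these 3 other scalings the 9 signs stayed positive, with medians of 0.12 to 0.13, while the median of all genes was -0.00 to 0.01. The signs rested in part on 1 library, since 6 of 9 were positive without control replicate 2, where 51.8% of all genes were, with a median of 0.02 against 0.01 for all genes.

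**Figure D1:**
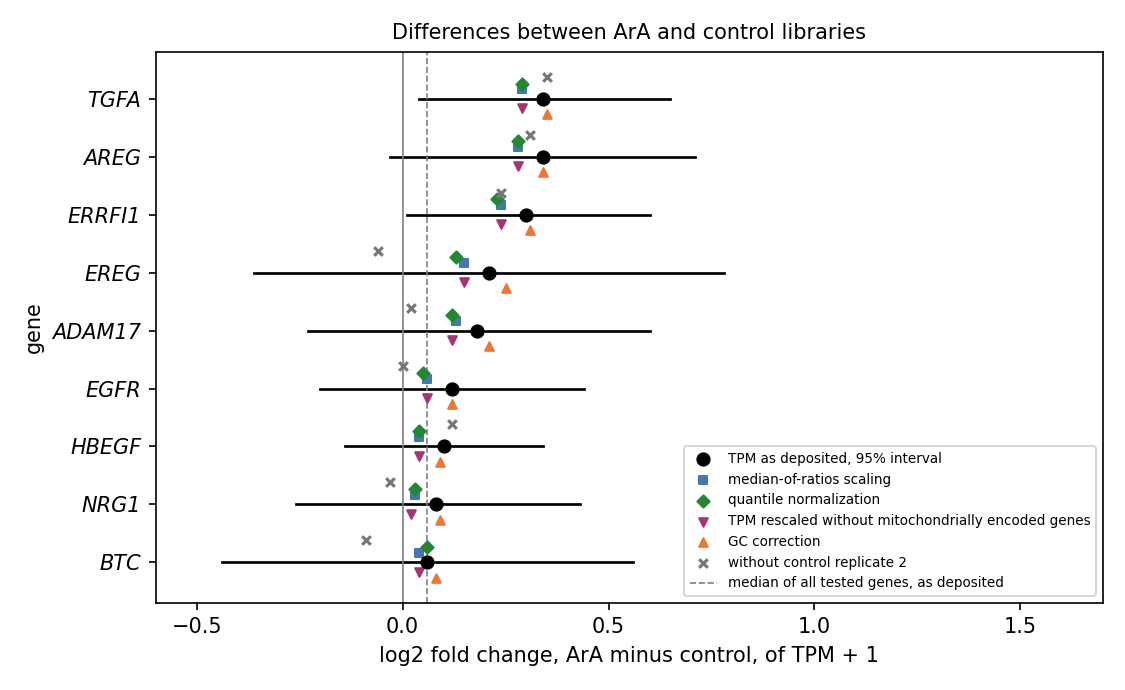
Log2 fold change of TPM + 1, ArA minus control, for the 9 tested genes: black points and bars are the limma estimate on TPM as deposited with its 95% interval, coloured symbols are estimates under other scalings, after GC correction and without control replicate 2, and the dashed line is the median of all tested genes. The estimates for TGFA, AREG and ERRFI1 stay above 0.2 in each setting drawn, whereas those of EREG, NRG1 and BTC lie below 0 without control replicate 2.

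The levels of the 10 genes spanned from the inhibitor, the highest, to epigen, at the floor of the table. Over the 6 libraries the mean was 211.6 TPM for ERRFI1, 70.7 TPM for EGFR, 61.0 TPM for HBEGF, 33.1 TPM for EREG, 31.8 TPM for ADAM17, 21.2 TPM for TGFA, 19.5 TPM for AREG, 18.7 TPM for NRG1, 1.10 TPM for BTC and 0.020 TPM for EPGN. ERRFI1 stood above EGFR, HBEGF above EREG, NRG1 above BTC and BTC above EPGN in 6 of 6 libraries with no overlap of their ranges. EGFR and HBEGF, EREG and ADAM17, TGFA and AREG, and AREG and NRG1 overlapped in range and changed order in at least 1 library. ADAM17 was above TGFA in 6 of 6 libraries although their ranges overlapped. Among all tested genes, ERRFI1 lay at percentile 95.9 of mean level and EGFR at percentile 87.2.

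**Figure D2:**
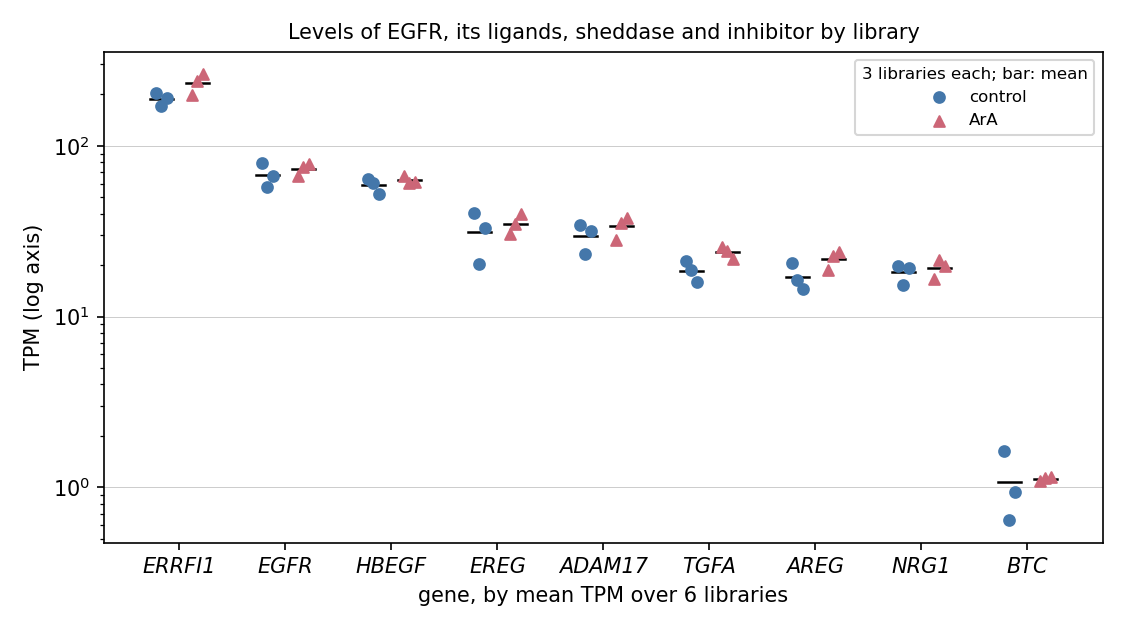
TPM on a log axis for 9 of the 10 genes, ordered by mean level, with 1 symbol per library (circles control, triangles ArA, 3 each) and a bar at each group's mean; EPGN, at 0 to 0.05 TPM, is not drawn. The ArA triangles lie wholly above the control circles only for TGFA.

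EGFR (ENSG00000146648) is a forward-strand gene of chromosome 7, from 55019021 to 55211628 in GENCODE v29 on hg38. It had 79.9, 57.1 and 66.9 TPM in control replicates 1, 2 and 3 and 67.0, 75.3 and 77.9 TPM in ArA replicates 1, 2 and 3, the order in which all values by library are given. The highest value of all was a control and the ArA values lay within the control range. The means were 67.9 ± 11.4 TPM without and 73.4 ± 5.68 TPM with ArA (SD, n = 3 each). ArA minus control on the log2 scale was 0.12 (SE 0.14, 95% interval -0.20 to 0.44). As a fold of TPM + 1, this interval ran from 0.871 to 1.36, and it rests on the spread of these 6 libraries. The log2 fold change was 0.00 without control replicate 2 and 0.24 without control replicate 1. EGFR-AS1, an antisense gene that overlaps an EGFR exon, was listed at 0 to 0.09 TPM.

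Among the genes whose values over the 6 libraries were most like those of EGFR were IARS2 and SLC30A7, at mean absolute differences of 0.014 and 0.017 on the log2 scale after centring each gene. The median over 9140 compared genes was 0.162. IARS2, which codes for the mitochondrial isoleucyl-tRNA synthetase, had 60.05, 42.7 and 50.5 TPM without and 52.0, 56.9 and 58.0 TPM with ArA, the same order of libraries from low to high as EGFR.

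Of the 7 ligand genes, HBEGF made up the largest share of transcripts, 36.7 to 45.9% of their summed TPM. EREG made up 15.4 to 24.3%, TGFA 11.8 to 16%, AREG 10.6 to 14.2% and NRG1 10.4 to 14.2%, while BTC held at most 0.979% and EPGN at most 0.0367%. The summed ligand level was 145.1 ± 19.6 TPM without and 164 ± 4.66 TPM with ArA (SD, n = 3 each), and control replicate 1, at 168 TPM, lay above ArA replicates 1 and 2. Set against EGFR in the same library, the sum was 2.03 to 2.31 times the EGFR level in control and 2.16 to 2.37 times in ArA libraries. The sum holds NRG1, whose product binds ERBB3 and ERBB4 and not EGFR, and leaves out EGF.

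**Figure D3:**
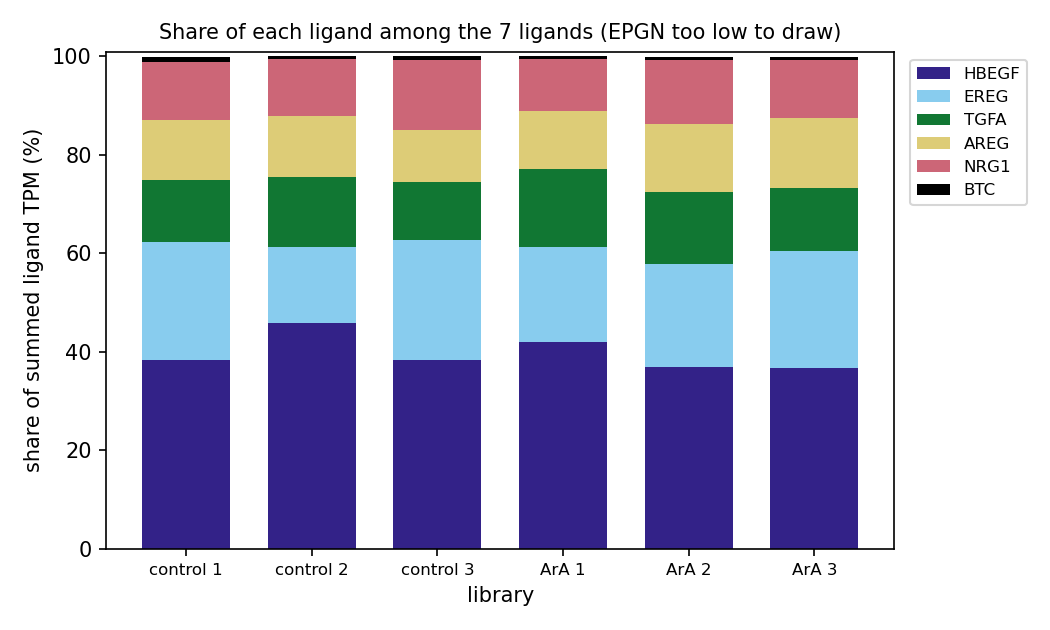
Stacked shares of the ligand genes in the summed ligand TPM of each library, in percent. HBEGF is the largest block in all 6 libraries, and EREG is narrowest in control replicate 2, at 15.4%.

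TGFA (ENSG00000163235), a reverse-strand gene of chromosome 2 from 70447280 to 70554193, codes for TGF-alpha, a ligand that binds EGFR alone among the family's receptors. It had 21.1, 18.7 and 16.03 TPM in control replicates 1, 2 and 3 and 25.5, 24.2 and 21.8 TPM in ArA replicates 1, 2 and 3. All 3 ArA values lay above all 3 control values, and the closest pair was ArA replicate 3 and control replicate 1. Of the 9 tested genes, 1, TGFA, had separated groups, where 6.84% of all tested genes were separated in that direction. The means were 18.6 ± 2.54 and 23.8 ± 1.90 TPM (SD, n = 3 each), a ratio of 1.28. The log2 fold change came to 0.34 with an SE of 0.13 (95% interval 0.04 to 0.65, limma unadjusted p = 0.0312, adjusted p = 0.999), and TGFA ranked at 205 of 12999 genes by p. It was 0.29 under each of the 3 other scalings, with unadjusted limma p of 0.0821 to 0.111. Array weights were 0.686, 0.219 and 2.99 for control replicates 1, 2 and 3. For ArA replicates 1, 2 and 3 they were 0.303, 7.59 and 0.967. With these weights TGFA, lowest in control replicate 3, passed at a limma adjusted p of 0.0491, as did 1.65% of all tested genes. Over its 20 alternatives the adjusted p ranged from 0.0491 to 1.0. The genes most like TGFA over the 6 libraries were TMEM62, PROCR and THBS1, at mean absolute differences of 0.053, 0.056 and 0.058 against a median of 0.213.

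HBEGF (ENSG00000113070), a reverse-strand gene of chromosome 5 from 140332843 to 140346631, codes for heparin-binding EGF, whose membrane-bound precursor can also signal to neighbouring cells. It had 64.2, 60.4 and 52.2 TPM without and 66.8, 60.9 and 61.8 TPM with ArA, with control replicate 1 above ArA replicates 2 and 3. Its log2 fold change was 0.10 (SE 0.10, 95% interval -0.14 to 0.34), and as a fold of TPM + 1 this interval ran from 0.906 to 1.27. HBEGF had the smallest spread of the ligands over the 6 libraries, its highest value being 1.28 times its lowest.

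NRG1 (ENSG00000157168) codes for neuregulin 1, which binds ERBB3 and ERBB4 and not EGFR. It had 19.8, 15.3 and 19.4 TPM without and 16.5, 21.6 and 19.9 TPM with ArA, with overlapping groups and a log2 fold change of 0.08 (SE 0.15, 95% interval -0.26 to 0.43). NRG1 has many isoforms that differ in their receptor-binding and membrane parts, and the table gives 1 value for the gene as a whole.

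The genes of the other 4 ligands are the only protein-coding genes in a stretch of 486 kb on chromosome 4 in GENCODE v29. EPGN (ENSG00000182585) lies from 74308473 to 74315307, EREG (ENSG00000124882) from 74365143 to 74388751 and AREG (ENSG00000109321) from 74445134 to 74455009, all on the forward strand, and BTC (ENSG00000174808) lies on the reverse strand from 74744759 to 74794686. The first 3 start within 137 kb of each other, yet EREG and AREG lay between 14.5 and 40.3 TPM and EPGN, epigen, was listed at 0 in 3 of 6 libraries.

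The 250 bases before the start of these 3 neighbours are shown because the genes share strand and position and differ in level, with those of EGFR for contrast. They come from RefSeq's table on GRCh38.p14, which held 9 of the 10 genes (not NRG1), at chr4:74308220-74308469, chr4:74364895-74365144, chr4:74444886-74445135 and chr7:55018767-55019016, all on the forward strand. Capitals mark matches on either strand to 5 motifs: the TATA box TATAAA, the GC box GGGCGG, the cyclic AMP response element TGACGTCA, the AP-1 site TGANTCA and the DR1 element, AGGTCA repeated with 1 base between, which PPAR receptors bind. The motifs and the promoters shown were chosen with the levels of the genes known.
EPGN: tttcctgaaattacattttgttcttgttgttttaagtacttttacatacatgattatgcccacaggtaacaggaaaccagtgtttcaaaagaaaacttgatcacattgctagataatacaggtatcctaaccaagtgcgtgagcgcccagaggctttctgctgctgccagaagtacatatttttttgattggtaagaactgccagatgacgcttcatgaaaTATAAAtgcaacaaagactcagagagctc
EREG: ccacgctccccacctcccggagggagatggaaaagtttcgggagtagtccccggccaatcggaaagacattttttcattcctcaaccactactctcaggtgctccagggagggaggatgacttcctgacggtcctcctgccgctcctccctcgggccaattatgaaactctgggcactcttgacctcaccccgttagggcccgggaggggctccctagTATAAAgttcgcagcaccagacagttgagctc
AREG: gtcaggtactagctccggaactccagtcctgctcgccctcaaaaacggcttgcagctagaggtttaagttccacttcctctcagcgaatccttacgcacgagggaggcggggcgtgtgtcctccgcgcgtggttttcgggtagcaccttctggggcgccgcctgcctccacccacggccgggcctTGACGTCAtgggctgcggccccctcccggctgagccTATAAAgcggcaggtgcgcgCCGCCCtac
EGFR: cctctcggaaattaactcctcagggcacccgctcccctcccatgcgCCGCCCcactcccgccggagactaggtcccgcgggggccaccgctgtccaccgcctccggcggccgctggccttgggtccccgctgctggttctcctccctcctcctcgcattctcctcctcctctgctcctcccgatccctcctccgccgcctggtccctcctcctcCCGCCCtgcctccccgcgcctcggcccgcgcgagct

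EPGN, EREG and AREG each held TATAAA, starting 29, 32 and 29 bases before the start, a motif found in 11.1% of 27305 promoters and in none of the other 6 genes with a promoter entry. AREG alone held TGACGTCA, from 65 to 58 bases before the start, which 1.77% of promoters held. EGFR held no TATAAA and 2 GC boxes on the reverse strand, and GC boxes stood in 6 of the 9 promoters and in 42.3% of all. The GC content of the window was 38% for EPGN, 58.0% for EREG, 65.2% for AREG and 73.6% for EGFR, where the median of all promoters was 58.0%. No match to the AP-1 or DR1 letters was found in any of the 9 windows; 6.60% and 0.0183% of all promoters held them. The motifs did not overlap one another in the 4 sequences shown.

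**Figure D4:**
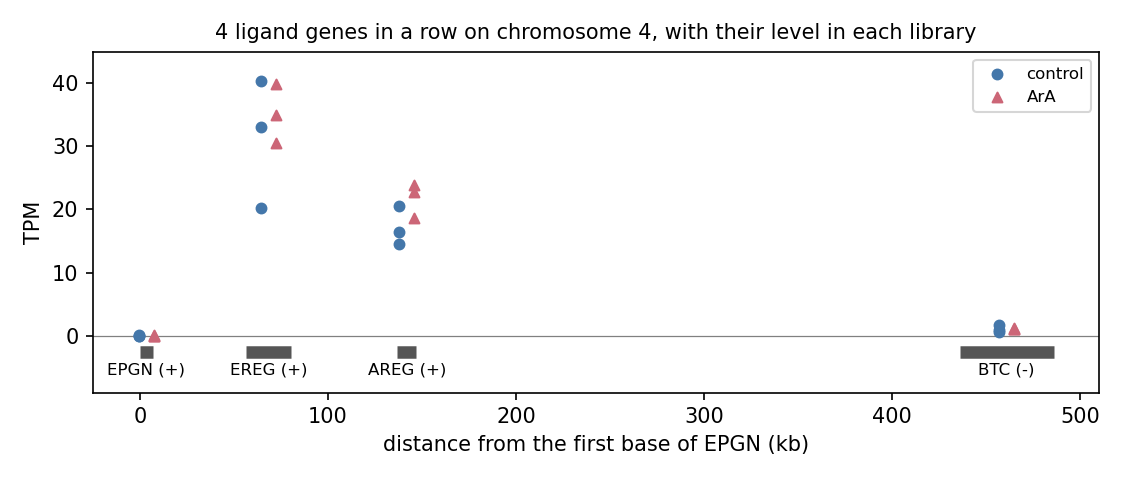
The 4 ligand genes on chromosome 4, drawn as grey bars by distance in kb from the first base of EPGN with the strand as + or -, under their TPM in each library (circles control, triangles ArA, 3 each). EREG and AREG lie between 14.5 and 40.3 TPM, whereas BTC stays between 0.64 and 1.64 TPM and EPGN at 0 to 0.05 TPM.

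AREG, which codes for amphiregulin, a low-affinity EGFR ligand of the mammary gland, had 20.5, 16.4 and 14.5 TPM in control replicates 1, 2 and 3 and 18.7, 22.7 and 23.9 TPM in ArA replicates 1, 2 and 3. ArA replicates 2 and 3 were above every control, and ArA replicate 1 lay below control replicate 1. The means were 17.1 ± 3.10 and 21.8 ± 2.73 TPM (SD, n = 3 each), a ratio of 1.27, with a log2 fold change of 0.34 (SE 0.16, 95% interval -0.03 to 0.71). The estimate was as large as that of TGFA with a wider interval, and it was 0.28 under each other scaling. With array weights it was 0.52 (limma adjusted p = 0.0526), outside the 1.65% of all tested genes that passed.

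EREG, which codes for epiregulin, a ligand of EGFR and ERBB4, had 40.3, 20.3 and 33.0 TPM without and 30.5, 34.9 and 39.8 TPM with ArA. Control replicates 1 and 2 held both the highest and the lowest value. The means were 31.2 ± 10.1 and 35.1 ± 4.64 TPM (SD, n = 3 each), and the log2 fold change of 0.21 (SE 0.24) turned to -0.06 without control replicate 2. BTC, which codes for betacellulin, lay just inside the filter, with 1.64, 0.64 and 0.94 TPM without and 1.09, 1.13 and 1.15 TPM with ArA and a log2 fold change of 0.06 (SE 0.21). EPGN had 0.02, 0 and 0.05 TPM without and 0, 0.05 and 0 TPM with ArA and no fold is given.

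ADAM17 (ENSG00000151694), the sheddase, is a reverse-strand gene of chromosome 2, from 9488486 to 9556732. It had 34.2, 23.1 and 31.9 TPM without and 28.3, 35.2 and 37.8 TPM with ArA, so that ArA replicates 2 and 3 were the highest and ArA replicate 1 lay among the controls. Its log2 fold change of 0.18 (SE 0.18, 95% interval -0.23 to 0.60) became 0.02 without control replicate 2. Exons of ADAM17 overlap those of IAH1 on the other strand, which had 26.04 to 30.8 TPM. Whether counting used strand is not given in the sources used here. If it did not, reads of the shared part cannot be told apart, and the level of ADAM17 is uncertain.

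ERRFI1 (ENSG00000116285), the inhibitor, is a reverse-strand gene of chromosome 1, from 8004404 to 8026308. It had 205, 172 and 189.7 TPM without and 197, 241 and 264 TPM with ArA. ArA replicates 2 and 3 were above every control and ArA replicate 1 was below control replicate 1. The means were 188.9 ± 16.6 and 234 ± 33.97 TPM (SD, n = 3 each), a ratio of 1.24. The log2 fold change came to 0.30 with an SE of 0.13 (95% interval 0.01 to 0.60, limma unadjusted p = 0.0466, adjusted p = 0.999). It was 0.23 to 0.24 under the other scalings and 0.36 without both control replicate 2 and ArA replicate 1. With 1 library left out, it ranged from 0.21 without ArA replicate 3 to 0.42 without ArA replicate 1, and was 0.24 without control replicate 2. With array weights, at 7.59 for ArA replicate 2, 2.99 for control replicate 3 and 0.219 for control replicate 2, ERRFI1 passed, as did 1.65% of all tested genes. Its limma adjusted p was 0.0492, the lowest of its 20 alternatives, which reached up to 1.0.

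The libraries that stood apart by GC content were looked at for each gene. All 9 tested genes were below their own mean in control replicate 2, with a median deviation of -0.28 on the log2 scale, where the median of all tested genes was -0.11. Of the 9, 6 had their lowest value there. The shares of all tested genes below their mean or lowest in that library are not given here, so these counts are not particular to the 9. In ArA replicate 1, 6 of the 9 were below their own mean, with a median of -0.07 beside -0.089 for all tested genes. The longest transcripts of the 9 genes held 36.1% GC for EREG, 38.5% for ADAM17 and 40.2% for BTC, up to 50.9% for HBEGF, beside a median of 48.3% over tested genes. After each library's trend with GC content was subtracted, the SE was 0.12 in place of 0.24 for EREG, at a log2 fold change of 0.25, and 0.08 in place of 0.18 for ADAM17, at 0.21. It was 0.14 for EGFR and 0.10 for HBEGF with and without the correction, and 0.12 in place of 0.13 for TGFA. All 9 genes were still below their own mean in control replicate 2, with a median of -0.18, and the median of the 9 in ArA replicate 1 was 0.05. The medians of all genes after this correction are not given here. ADAM17 and ERRFI1 then separated the groups as TGFA did, 3 of 9 genes, where 8.13% of 12637 genes were separated in that direction. AREG, TGFA, ADAM17 and ERRFI1 then had an unadjusted limma p under 0.05, against 3.22% of genes in that direction, and the adjusted p stayed at 0.999 for each of the 9.

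**Figure D5:**
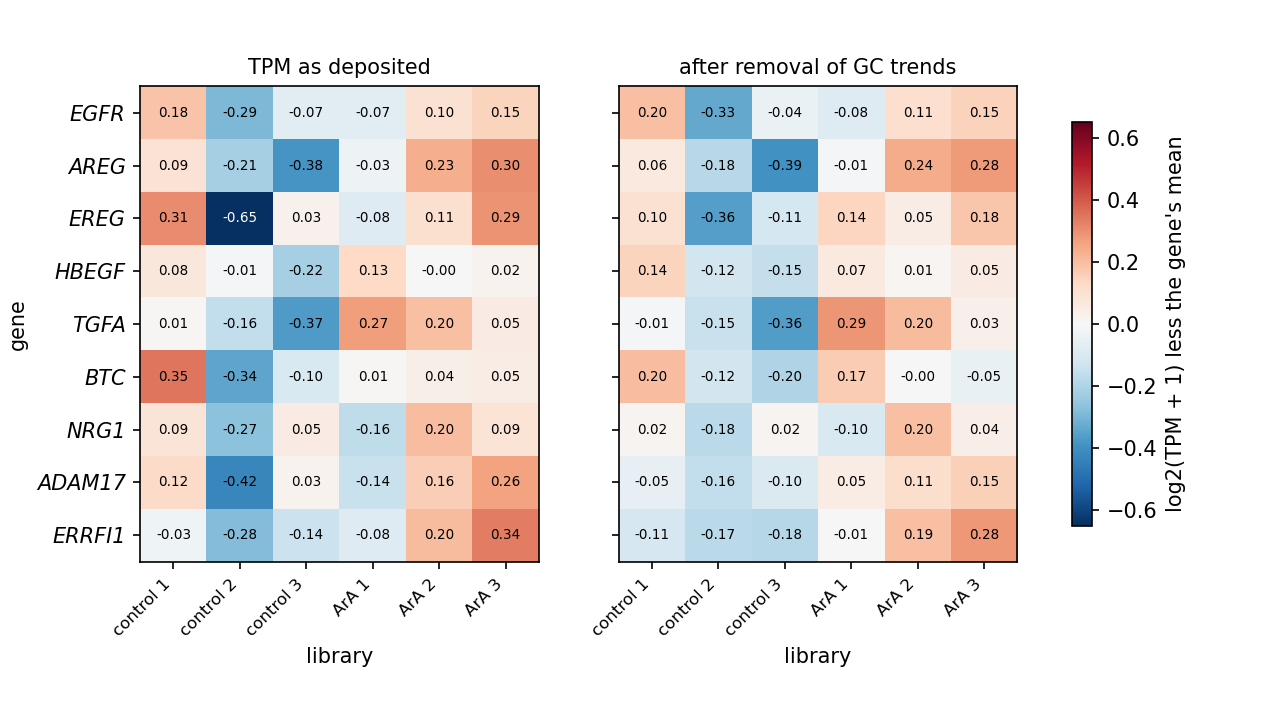
Each tested gene's log2(TPM + 1) less its own mean over the 6 libraries, as deposited (left) and after subtraction of each library's GC trend (right), red above and blue below the mean. The column of control replicate 2 is blue for all 9 genes on the left, from -0.01 for HBEGF to -0.65 for EREG, and EREG stands at -0.36 there on the right.

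Apart from ERBB2, the other receptors and ligands of the family had means of at most 6.56 TPM, that of NRG2. ERBB2, the co-receptor without a ligand of its own, had 35.7 ± 5.37 TPM without and 39.1 ± 2.15 TPM with ArA, and ERBB3, the kinase-poor partner that binds neuregulins, had 3.40 ± 0.455 and 3.65 ± 0.237 TPM (SD, n = 3 each). ERBB4 had a mean of 0.185 TPM and was not tested. EGF, which codes for the founding ligand, had 1.75, 1.26 and 1.83 TPM without and 2.13, 2.84 and 1.96 TPM with ArA, so its groups did not overlap (limma unadjusted p = 0.0993, adjusted p = 0.999), as in 6.84% of all tested genes in that direction. Of 4 tested genes of 7, 0 passed in limma and 0 had an unadjusted p under 0.05, and the median log2 fold change was 0.16 against 0.06 for all tested genes.

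Among 12 tested genes of 15 for ligand shedding and processing, 0 passed and 1, TIMP3, had an unadjusted limma p under 0.05 and a higher level, as did 2.28% of all tested genes. TIMP3, the tissue inhibitor that blocks ADAM17, had 33.9, 33.6 and 28.2 TPM without and 39.3, 39.2 and 36.5 TPM with ArA, with a log2 fold change of 0.26 (SE 0.10, limma unadjusted p = 0.0401, adjusted p = 0.999). TSPAN14, a tetraspanin that brings ADAM10 to the membrane, and the protease gene ADAM19 also had separated groups, at 32.1 ± 1.53 and 36.8 ± 0.487 TPM and at 13.0 ± 2.12 and 16.1 ± 0.872 TPM (SD, n = 3 each), which made 3 of 12 against 6.84% of all tested genes. ADAM15 had the highest level, at a mean of 129 TPM. The iRhom genes RHBDF1 and RHBDF2, whose products carry ADAM17 through the secretory pathway, had log2 fold changes of 0.07 and 0.02. The list's median was 0.08, and 10 of 12 fold changes were positive as deposited and 6 to 7 under the other scalings. Of all tested genes 68.9% were positive as deposited and 49.3 to 51.7% under the other scalings. With array weights TIMP3 and ADAM19 passed, at limma adjusted p = 0.0468 and 0.0492, as did 1.65% of all tested genes.

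Of 25 adaptors and kinases downstream of EGFR, all tested, 0 passed in limma, 0 had an unadjusted p under 0.05 and 0 separated the groups. Their median log2 fold change was 0.06, equal to that of all tested genes, with 22 positive as deposited (68.9% of all tested genes) and 12 to 13 under the other scalings (49.3 to 51.7%). MAP2K2, which codes for MEK2, had the highest mean, 112 TPM, and the adaptor gene SHC1 had the smallest p, at 85.3 ± 6.39 and 95 ± 3.93 TPM (SD, n = 3 each). Of 20 tested negative regulators and endocytosis genes, 0 passed and 1 had an unadjusted limma p under 0.05, HGS, a sorting gene of the endosome that directs ubiquitinated receptors to lysosomes. Of all tested genes, 2.28% were higher at this p. HGS had 78.8, 87.8 and 84.95 TPM without and 99.2, 93.6 and 98.7 TPM with ArA, separated as 6.84% of all tested genes were, with a log2 fold change of 0.21 (SE 0.08). This list's median was 0.05, with 13 positive as deposited and 10 under each other scaling, beside the same shares of all tested genes.

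Of 22 transcripts that rise when ERK is active, all tested, 0 passed, and 2 higher and 1 lower had an unadjusted limma p under 0.05, where 2.28% and 0.508% of all tested genes did. DUSP5, a nuclear ERK phosphatase, had 61.8, 65.9 and 59.0 TPM without and 71.2, 74.8 and 72.4 TPM with ArA (log2 fold change 0.22, SE 0.08), and the urokinase receptor gene PLAUR had 296 ± 32.9 and 359 ± 35.1 TPM (SD, n = 3 each). SPRY1, a feedback inhibitor of the same pathway, went the other way, at 10.8, 10.9 and 10.8 TPM without and 7.78, 9.61 and 8.74 TPM with ArA (log2 fold change -0.29, SE 0.12). IER3 had the highest level of the list, 338 ± 27.8 and 332 ± 7.65 TPM. The median was 0.08, with 19 positive as deposited (68.9% of all tested genes) and 13 under each other scaling (49.3 to 51.7%). In this list 4 genes were separated higher and 2 lower, where 6.84% and 1.21% of all tested genes were. With array weights DUSP5 passed, at a limma adjusted p of 0.0391, as did 1.65% of all tested genes.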

How the data were processed

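Values in TPM were deposited by the authors as 1 table with a column per library. The submitters' processing notes list HISAT2, StringTie, RSEM and hg38 with no versions. The role of each tool, the annotation and any use of strand: not given in the sources used here. Each column summed to 1000000 within rounding. TPM hold no read totals, so depth is unknown, and the replicates alone show the precision. Beside 63241 genes, 25 blank lines and 25 lines of text without a gene were left out.

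The 12999 genes whose mean TPM was 1 or more were put on the log2(TPM + 1) scale. A limma model (version 3.58.1, R 4.3.3, trended eBayes) held a term for group and no other. Tests were 2-sided, with Benjamini-Hochberg adjustment over all tested genes and a threshold of 0.05. Fits were tested on simulated data. The 10 genes and the gene lists were chosen with earlier results of these data known. Other genes named were, for each list, those past the threshold, the highest by mean TPM, the smallest p, and up to 3 with separated groups. ERBB3, ERBB4, NRG2, RHBDF1, RHBDF2 and PTPN2 were named after their values were seen. One of the genes most like EGFR is not reported here. Likeness was the mean absolute difference of centred log2(TPM + 1) over 6 libraries among tested genes whose mean reached 5 TPM. GC content came from the longest GENCODE v29 transcript, for 97.2% of tested genes, and the correction subtracted a natural spline of 5 degrees of freedom per library. Alternatives were other scalings, pseudocounts of 0.1 and 5, other filters, the replicate number as a block, other eBayes settings, array weights, GC correction and libraries left out. Fits with other scalings or with libraries left out kept the same tested genes, less the mitochondrial ones where these were removed; this was settled after a first set of results had been seen.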

Additional observations from a re-analysis of the deposited data

How the results depend on the processing

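In limma 3 genes passed the adjusted threshold of 0.05 over all tested genes, none of them of the EGFR system. That count was 214 with array weights, 5 after GC correction, 0 with the replicate number as a block, 12 without both control replicate 2 and ArA replicate 1, and 0 to 7 with 1 library left out. It was 0 without control replicate 1 (413 genes at an unadjusted p under 0.05) or ArA replicate 2 (228 genes), and 7 without control replicate 2 or ArA replicate 1. With GC correction and the block together it was 2, and with the block alone 232 genes had an unadjusted p under 0.05. Same-numbered libraries did not deviate together (correlations of -0.157, -0.280 and 0.109 for numbers 1, 2 and 3), and each control correlated best with another number, so the numbers were not taken to pair the libraries. Under the alternatives 173 estimates of the 9 tested genes kept sign and side of the threshold, 4 changed sign and 2 passed. TGFA passed with array weights at a log2 fold change of 0.47 and ERRFI1 at 0.34. With these weights 1.65% of all tested genes passed. An unadjusted limma p under 0.05 was then found for 3189 genes, against 362 on TPM as deposited without weights. Without control replicate 2 the log2 fold change was -0.06 for EREG, -0.09 for BTC and -0.03 for NRG1, and it was -0.08 for BTC without both that library and ArA replicate 1. With 1 library left out, it ranged from 0.25 to 0.44 for TGFA, 0.23 to 0.47 for AREG, 0.21 to 0.42 for ERRFI1, 0.00 to 0.24 for EGFR, -0.06 to 0.41 for EREG, -0.09 to 0.25 for BTC and -0.03 to 0.19 for NRG1. With array weights 2 shedding and processing genes and 1 of the transcripts that rise when ERK is active passed, against 0 for each otherwise. The causes of these changes were not tested. EPGN had a fit only with no filter on low values, and BTC none at a mean of at least 5 TPM.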

Other observations

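Ratios of 2 genes within a library do not change when all values of the library are multiplied by 1 factor. TGFA over HBEGF was 0.329, 0.309 and 0.307 in control replicates 1, 2 and 3 and 0.382, 0.397 and 0.352 in ArA replicates 1, 2 and 3, so the groups did not overlap. TGFA itself had separated groups and HBEGF the smallest spread of the ligands, so this ratio is not separate evidence. The share of all gene ratios that separate the groups is not given here. ERRFI1 over EGFR was 2.57, 3.01 and 2.84 in control and 2.95, 3.21 and 3.39 in ArA libraries, and control replicate 2 lay above ArA replicate 1. EREG over AREG was 1.63, 1.54 and 1.66 in ArA libraries and 1.96, 1.24 and 2.28 in control libraries. These ratios were chosen after the values of the genes had been seen and have no test.

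PTPN2, a phosphatase gene among the negative regulators, had 48.3 TPM in control replicate 3 and 7.18 to 13.1 TPM in the other 5 libraries. BTC had a SD of 0.513 TPM without and 0.0306 TPM with ArA at nearly equal means of 1.07 and 1.12 TPM. These SDs rest on 3 values each of a gene just inside the filter. They were picked after the values had been seen, and their difference was not tested.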
